A study of Mus musculus with 4 samples.

Results

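Basophils of the mouse spleen were picked from droplet single-cell RNA profiles as barcodes with 500 or more UMIs (unique molecular identifiers, each standing for an RNA molecule) and 250 or more genes, of whose UMIs mitochondrial genes took no more than 10%. At least 2 of 6 genes of basophils and mast cells had to be detected, which were Mcpt8, Prss34, Cpa3, Ms4a2, Fcer1a and Cd200r3. Barcodes were left out where Camp, Ngp and Ltf together, or Elane and Prtn3 together, reached 0.5% of UMIs, since these granule genes mark neutrophils and their precursors. The rule kept 203 of 53945 barcodes of the series. Spleens came from 4 female C57BL/6J mice, 1 library each. A pair of the mice, called D3TA, carried 1 copy of a constitutive CRISPR knock-in allele of the cyclin D3 gene Ccnd3 in all tissues, with alanine in place of threonine 283, and the other pair was wild type (WT). The animals were between 12 and 16 months of age, when the knock-in mice have a myeloproliferative neoplasm, and the labels do not tie an age to a mouse. Red cells had been lysed. D3TA replicate 1 held 119 basophil barcodes, D3TA replicate 2 held 35, WT replicate 1 held 45 and WT replicate 2 held 4.

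Basophils are short-lived granulocytes that arise in the bone marrow from precursors expressing the transcription factor GATA2 and grow under IL-3 signalling through STAT5. They carry the high-affinity IgE receptor, built from the alpha chain Fcer1a, the beta chain Ms4a2 and the shared gamma chain Fcer1g, and they release histamine, IL-4 and chemokines when it is cross-linked. In the mouse the serine proteases Mcpt8 and Prss34 mark basophils, while the chymases and tryptases of the Mcpt and Tps genes mark mast cells. Carboxypeptidase A3 (Cpa3) and histidine decarboxylase (Hdc), the enzyme that makes histamine, occur in both. Cyclin D3 pairs with CDK4 and CDK6 to drive cells through G1.

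The sequences before the start sites of 4 of the 6 genes are shown because these genes chose the cells, and Mcpt8 and Prss34 among them carry most of what follows. They are RefSeq sequences of GRCm38.p6, read along the gene's strand, and stop before any annotated transcript. The capitals mark letters that match a GATA motif with the letters AGATAA and its variant AGATAG, or TGATAA and its variant TGATAG, on either strand.
Prss34, chr17:25298144-25298393, plus strand: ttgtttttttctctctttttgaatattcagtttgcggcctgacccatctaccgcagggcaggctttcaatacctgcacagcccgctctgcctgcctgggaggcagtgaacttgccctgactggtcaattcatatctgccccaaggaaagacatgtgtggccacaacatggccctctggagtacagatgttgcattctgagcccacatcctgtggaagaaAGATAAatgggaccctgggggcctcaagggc
Mcpt8, chr14:56085274-56085447, minus strand: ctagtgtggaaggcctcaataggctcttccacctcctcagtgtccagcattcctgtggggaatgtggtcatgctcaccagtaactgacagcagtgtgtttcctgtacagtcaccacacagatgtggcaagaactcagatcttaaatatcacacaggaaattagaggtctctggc
Cpa3, chr3:20242182-20242431, minus strand: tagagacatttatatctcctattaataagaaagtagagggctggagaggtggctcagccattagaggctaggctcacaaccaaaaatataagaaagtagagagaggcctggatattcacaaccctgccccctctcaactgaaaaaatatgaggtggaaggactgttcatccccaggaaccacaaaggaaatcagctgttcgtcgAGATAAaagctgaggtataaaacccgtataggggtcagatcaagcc
Cd200r3, chr16:44943428-44943677, plus strand: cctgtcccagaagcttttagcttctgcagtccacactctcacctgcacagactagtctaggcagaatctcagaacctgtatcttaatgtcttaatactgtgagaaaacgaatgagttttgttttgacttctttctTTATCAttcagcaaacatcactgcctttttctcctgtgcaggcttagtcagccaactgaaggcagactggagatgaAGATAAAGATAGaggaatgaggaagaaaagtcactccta
In windows of 300 bases around the start site, 5 of the 6 genes held at least 1 GATA motif, against 29.8% of all 32851 RefSeq windows of that length. Prss34, Cpa3 and Fcer1a held 1 each, Ms4a2 and Cd200r3 held 3 each and Mcpt8 held 0. The RUNX motif TGTGGT, present in 16.8% of windows on either strand, occurred in those of Mcpt8, Cpa3 and Fcer1a. These matches describe letters and say nothing of binding.

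Kept cells of WT replicate 1 had a median of 1394 UMIs, against 8111 and 7698 in D3TA replicates 1 and 2 and 8009 in WT replicate 2, so WT replicate 1 stood apart in depth. Its basophils were deeper, with a median of 3824 UMIs, against 10156 and 8948 in D3TA replicates 1 and 2 and 7516 in WT replicate 2. No cell barcode of a basophil was shared between libraries, and at most 96 kept barcodes were shared by any 2 libraries. Free RNA was not equal among the libraries: Mcpt8 had a UMI in 7.62% and 2.25% of B cells of D3TA replicates 1 and 2, against 0.105% and 0.884% of B cells of WT replicates 1 and 2. The median depths of these B cells were 13236, 8020, 1796 and 8425 UMIs in the same order. With 2 spleens a genotype, the smallest exact permutation p that a single value can reach is 0.33.

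Basophil markers were detected in every library and mast cell markers were nearly absent. Of the mast cell genes, Mcpt1, Mcpt2, Mcpt4, Mcpt9, Tpsab1, Tpsb2, Tpsg1, Mrgprb1 and Mrgprb2 had 0 UMIs in the basophil barcodes of every library. A single barcode, in WT replicate 1, had 2 or more mast cell genes, with 3 UMIs of the chymase Cma1, 24 of the stem cell factor receptor Kit, 74 of Cpa3, 20 of Gata2 and 151 of the granzyme Gzmb among 25180 UMIs. It held 24 of the 24 Kit UMIs of that library's members and 151 of its 152 Gzmb UMIs. All 11 basophil markers (the 6 genes of the rule, Itga2, Il3ra, Hdc, Ccl9 and Gata2) were detected in 3 libraries, and WT replicate 2 lacked Il3ra, the alpha chain of the IL-3 receptor. Outside the rule, Hdc had a UMI in 67 of 69, 26 of 26, 18 of 18 and 2 of 3 barcodes with 4 or more of the 6 genes, in D3TA replicates 1 and 2 and WT replicates 1 and 2.

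Many barcodes that met the rule with the least evidence looked unlike the rest in D3TA replicate 1, and less so in WT replicate 1. Results are therefore given for all members and for the 116 barcodes with at least 4 of the 6 genes, called core basophils here. D3TA replicate 1 held 69 core basophils, D3TA replicate 2 held 26, WT replicate 1 held 18 and WT replicate 2 held 3. Exactly 2 of the 6 genes were found in 45 barcodes of D3TA replicate 1 and 6 of D3TA replicate 2, against 19 of WT replicate 1 and 1 of WT replicate 2. In 34 of those 45 barcodes of D3TA replicate 1 the 6 genes had no more than 1 UMI each. Among the 45, Hdc was found in 9, 20 had at least 2 B cell genes and 16 had at least 2 of the T cell genes Cd3d, Cd3e and Cd3g. Of the 19 in WT replicate 1, Hdc was found in 12, 13 had at least 2 B cell genes and 3 had at least 2 of these T cell genes. Barcodes with exactly 3 genes had Hdc in 4 of 5 and 3 of 3 in D3TA replicates 1 and 2, and in 5 of 8 in WT replicate 1. The core thus also left out barcodes with Hdc, but Hdc alone does not mark a basophil here. Members held 6.16% and 12.4% of the Hdc UMIs of D3TA replicate 1 and WT replicate 1. The 45 included the 4 members of D3TA replicate 1 with 500 or more UMIs of 8 mature neutrophil genes. Those 4 had 5 to 17 Hdc UMIs each. The core left out 50 of 119 and 9 of 35 members of D3TA replicates 1 and 2, against 27 of 45 and 1 of 4 of WT replicates 1 and 2. B cell genes stayed in the core of the WT libraries: at least 2 of Cd79a, Cd79b and Ms4a1 were detected in 0 of 69 and 1 of 26 core basophils of D3TA replicates 1 and 2, against 8 of 18 and 2 of 3 of WT replicates 1 and 2. Scrublet scored 2 of the 4 members of WT replicate 2 as doublets, and both were core basophils.

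Basophils took a larger share of both D3TA spleens than of either WT spleen. The share of kept cells in D3TA replicate 1 was 0.952% (exact 95% interval 0.789 to 1.14), and that in D3TA replicate 2 was 0.32% (0.223 to 0.444). It was 0.199% (0.145 to 0.266) in WT replicate 1 and 0.0508% (0.0138 to 0.13) in WT replicate 2. The groups did not overlap, and the 2 D3TA spleens differed from each other beyond these intervals, which cover counting error only. The means were 0.636 ± 0.447% in D3TA and 0.125 ± 0.105% in WT spleens (SD, n = 2 each), a 5.09-fold difference with a two-sided exact permutation p of 0.33, the smallest possible. Without WT replicate 1 the ratio was 12.5, without D3TA replicate 1 it was 2.56, without D3TA replicate 2 it was 7.62 and without WT replicate 2 it was 3.2. Core basophils made up 0.552% and 0.237% of D3TA replicates 1 and 2, against 0.0796% and 0.0381% of WT replicates 1 and 2, a 6.71-fold difference of means. The limit on granule genes of the rule removed barcodes from D3TA libraries alone: without it there were 235 and 54 members in D3TA replicates 1 and 2, against 45 and 4 in WT replicates 1 and 2.

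**Figure D1:**
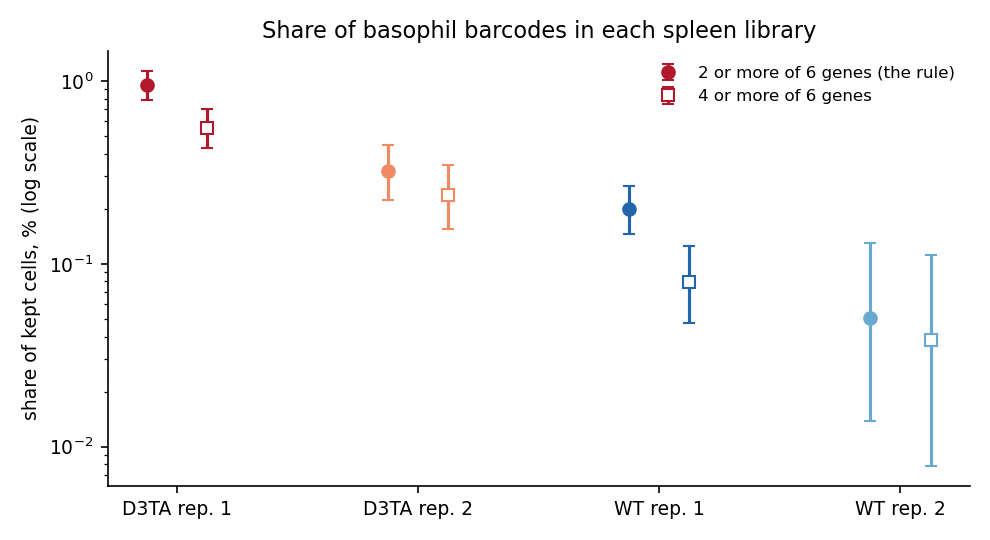
Share of kept cells, in percent on a log scale, that were basophil barcodes in each library, for the rule (filled circles) and for core basophils (open squares). Bars are exact 95% intervals. Both D3TA libraries lie above both WT libraries by either count.

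Both basophil-specific proteases were higher in D3TA basophils. Mcpt8, a granzyme-like protease, stood at 7319 and 7768 CPM (UMIs of the gene per 1000000 UMIs of the summed basophils) in D3TA replicates 1 and 2, against 511 and 2352 CPM in WT replicates 1 and 2. Prss34, also called mMCP-11, stood at 7873 and 8069 CPM in D3TA replicates 1 and 2, against 15.5 and 1462 CPM in WT replicates 1 and 2. For both genes the D3TA replicates were close together and far above either WT replicate, and the WT replicates were far apart. Since the genes chose the cells, these levels are a description, and each gene was tested in cells chosen by the other 5 genes. Those 5 genes still included the other protease. In core basophils, Spearman's rho of the shares of Mcpt8 and Prss34 was 0.88 and 0.94 in D3TA replicates 1 and 2. It was 0.27 in WT replicate 1. A choice of cells without both proteases was not tested, so these fits were not independent of the choice. In those fits by edgeR's quasi-likelihood test, Mcpt8 was higher in D3TA basophils by a log2 fold change of 2.98 (adjusted p = 0.00156) and Prss34 by 3.95 (adjusted p = 0.0135). The higher direction held in each further fit of these cells that was run, but the calls did not hold in all.

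The WT level of Prss34 came from a single cell. In WT replicate 2, 45 of the 46 Prss34 UMIs lay in 1 cycling cell, and WT replicate 1 had 3 Prss34 UMIs in 45 basophils. In cells chosen by the other 5 genes, a set of fits added after the data were seen, neither gene was called without WT replicate 1 (edgeR adjusted p = 0.376 for Mcpt8 and 0.383 for Prss34). Without Scrublet doublets neither was called either (edgeR adjusted p = 0.052 for Mcpt8 and 0.774 for Prss34). Mcpt8 was called by DESeq2 (adjusted p = 0.0126) and without each of the other 3 libraries. Prss34 was not called by DESeq2 (adjusted p = 0.786) or without D3TA replicate 1 (edgeR adjusted p = 0.764), and was called without D3TA replicate 2 and without WT replicate 2.

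The other 4 genes of the rule differed less. Cpa3, the carboxypeptidase stored with proteases, stood at 1258 and 1265 CPM in D3TA replicates 1 and 2, against 686 and 318 CPM in WT replicates 1 and 2. The groups did not overlap, but in cells chosen without it the log2 fold change of 1.40 was not called by edgeR (adjusted p = 0.137). The WT barcode with mast cell genes held 74 of the 133 Cpa3 UMIs of WT replicate 1, and among core basophils Cpa3 was at 2483 and 1646 CPM in D3TA replicates 1 and 2, against 484 and 412 CPM in WT replicates 1 and 2. Ms4a2, the beta chain of the IgE receptor, stood at 611 and 940 CPM in D3TA replicates, against 459 and 731 CPM in WT replicates, and Fcer1a, its alpha chain, at 568 and 829 CPM against 475 and 509 CPM. Cd200r3, an activating receptor of basophils, stood at 603 and 1134 CPM in D3TA replicates, against 624 and 381 CPM in WT replicates. In cells chosen without each of them, edgeR gave adjusted p-values of 0.726, 0.678 and 0.522 for Ms4a2, Fcer1a and Cd200r3. Core basophils held 807756 and 329977 UMIs in D3TA replicates 1 and 2, against 109483 and 24290 in WT replicates 1 and 2. Of these, Cd200r3 had 948 and 491 against 92 and 11, and Fcer1a 919 and 370 against 65 and 16. Ms4a2 had 973 and 384 against 78 and 23. As shares of core UMIs the groups did not overlap for any of these genes, with D3TA higher, as a description only. The other 50 barcodes of D3TA replicate 1 held 816850 of its 1624606 basophil UMIs.

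**Figure D2:**
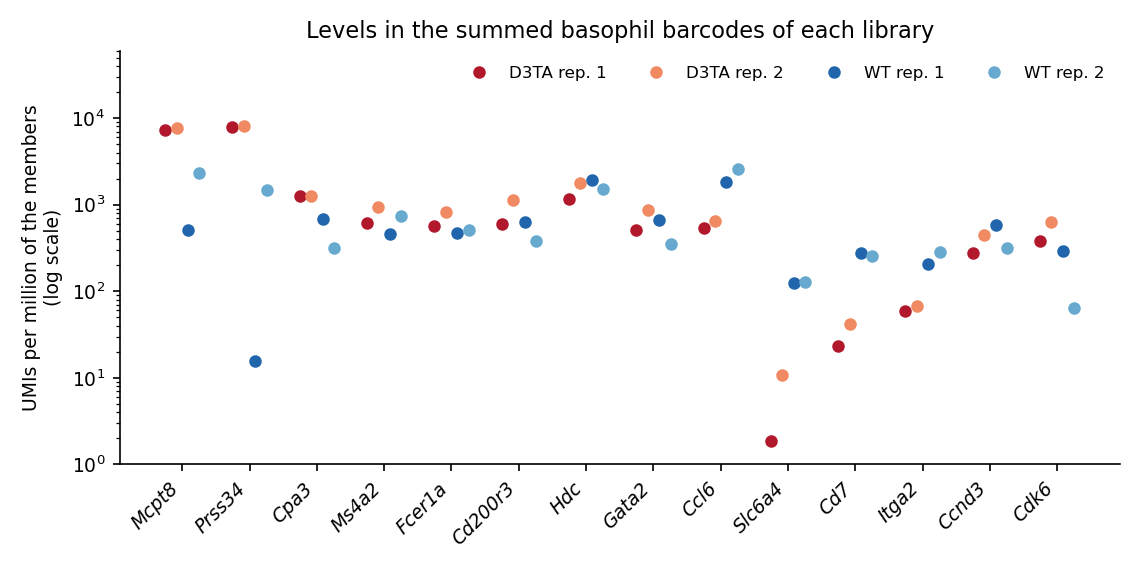
CPM on a log scale in the summed basophil barcodes of each library, 1 point per library, for the 6 genes of the rule and 8 others. Mcpt8 and Prss34 are higher in both D3TA libraries, Ccl6, Slc6a4, Cd7 and Itga2 are lower, and Hdc, Gata2, Ms4a2 and Fcer1a overlap or lie close together.

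Core basophils of the D3TA spleens fell into a range rich in Prss34 and a range poor in it. A limit of 0.1% of a cell's UMIs, set after the values were seen, put 47 of 69 cells of D3TA replicate 1 (68.1%) and 18 of 26 of D3TA replicate 2 (69.2%) in the rich range, while WT replicate 1 had 0 of 18 there and WT replicate 2 had 1 of 3. The cells just inside and just outside the limit had 0.148% and 0.0951% Prss34, 4 of the 116 cells lay between 0.05% and 0.2%, and 35 had no Prss34 UMI. Rich cells had a median of 2.57% and 2.04% of their UMIs in Prss34 in D3TA replicates 1 and 2. The description below carries no test, since the ranges were cut from the same cells.

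Mcpt8 was high in the cells that were high in Prss34. Its median share of a cell's UMIs was 2.03% and 1.80% in rich cells of D3TA replicates 1 and 2, and 0.169% and 0.0634% in poor cells of the same libraries. Poor cells of WT replicates 1 and 2 had medians of 0.053% and 0.0313%. Over core basophils of a library, Spearman's rho of the shares of Mcpt8 and Prss34 was 0.88 in D3TA replicate 1 (n = 69), 0.94 in D3TA replicate 2 (n = 26) and 0.27 in WT replicate 1 (n = 18), as a description of cells that share a library. Hdc ran the other way, with medians of 0.191% and 0.209% in rich cells of D3TA replicates 1 and 2, and 0.442% and 0.382% in poor cells of those libraries, against 0.266% and 0.25% in poor cells of WT replicates 1 and 2.

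Rich cells carried cell cycle genes, and nearly all had UMIs of 1 precursor granule gene, cathepsin G. A cell was counted as cycling with UMIs of at least 2 of Mki67, Top2a, Cdk1, Birc5, Ccnb2 and Cenpf. By that count 37 of 47 rich cells of D3TA replicate 1 and 15 of 18 of D3TA replicate 2 were cycling, and so was the 1 rich cell of WT replicate 2. Of the poor cells, 5 of 22 and 2 of 8 were cycling in D3TA replicates 1 and 2, against 0 of 18 and 0 of 2 in WT replicates 1 and 2. Cathepsin G (Ctsg), a protease of early granulocyte granules, was detected in 45 of 47 and 18 of 18 rich cells of D3TA replicates 1 and 2, and in 8 of 22 and 4 of 8 poor cells. Mpo, a further granule gene, was detected in 30 of 47 and 10 of 18 rich cells, and in 10 of 22 and 4 of 8 poor cells. Summed over 6 genes of neutrophil precursors, rich cells held 4594 and 1256 CPM in D3TA replicates 1 and 2. Poor cells held 3366 and 1916 CPM, so the order differed between these libraries. Median depth differed too, at 10995 and 9793 UMIs in rich and 5272 and 6427 UMIs in poor cells of D3TA replicates 1 and 2, and its part in these counts was not tested.

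Poor cells carried more RNA of chemokines and of Ifitm1 than rich cells of the same D3TA libraries. Ccl6, a CC chemokine, stood at 566 and 580 CPM in rich cells of D3TA replicates 1 and 2 and at 2064 and 1476 CPM in their poor cells, against 2731 and 3796 CPM in poor cells of WT replicates 1 and 2. Ccl9, another CC chemokine, stood at 262 and 361 CPM in rich and 916 and 924 CPM in poor cells of the D3TA replicates, against 2220 and 656 CPM in poor cells of WT. Ifitm1, an interferon-inducible membrane protein, stood at 260 and 386 CPM in rich and 2899 and 2310 CPM in poor cells of the D3TA replicates, against 3042 and 3609 CPM in poor cells of WT. The 5 and 2 cycling cells among the poor cells of D3TA replicates 1 and 2 held 56.5% and 61.8% of their UMIs, and WT poor cells included none. In poor cells that were not cycling, a setting added after the data were seen, Ccl6 stood at 4747 and 3864 CPM in D3TA replicates 1 and 2, against 2731 and 3796 CPM in WT replicates 1 and 2. Ccl9 stood there at 2012 and 2389 CPM in D3TA replicates, against 2220 and 656 CPM in WT replicates, and Ifitm1 at 4902 and 4631 CPM against 3042 and 3609 CPM. Without the cycling cells, Ccl6 and Ifitm1 were thus higher in both D3TA libraries than in both WT libraries, by a narrow margin for Ccl6. Ccl9 overlapped between the groups. WT replicate 2 had 2 cells in this setting.

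**Figure D3:**
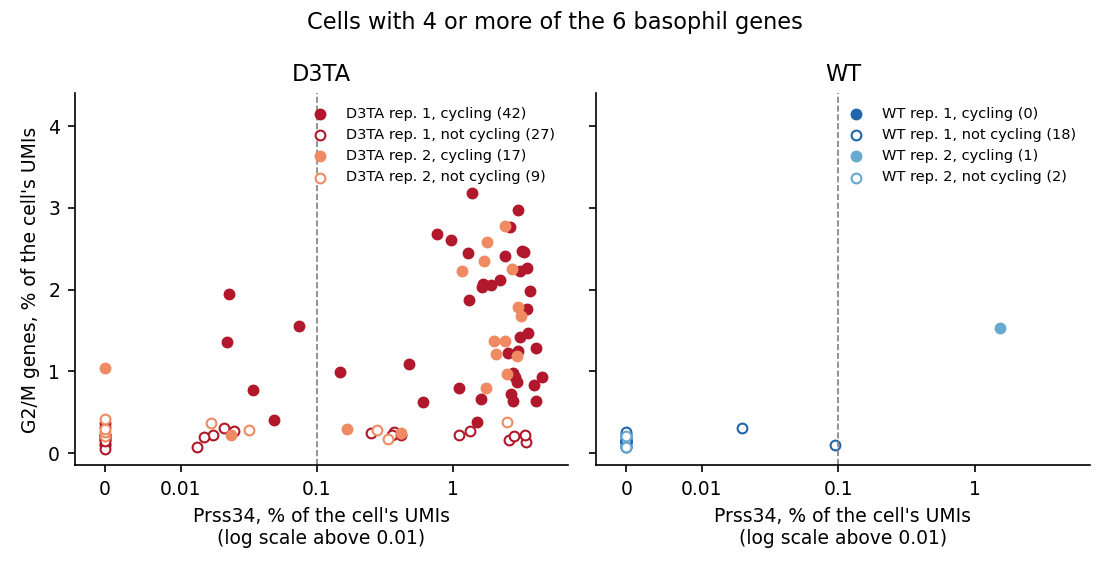
Each point is a core basophil, with its share of UMIs in Prss34 (horizontal, log scale above 0.01%) and in G2/M genes (vertical), for D3TA on the left and WT on the right. Filled points are cycling cells, numbers in the keys are cells, and the dashed line marks 0.1%. Most D3TA cells right of the line are cycling, and a single WT cell lies there.

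Cycling barcodes were counted in both D3TA spleens, while the WT spleens held 1. Among all members, 60 of 119 (50.4%, exact 95% interval 41.1 to 59.7) were cycling in D3TA replicate 1 and 19 of 35 (54.3%, 36.6 to 71.2) in D3TA replicate 2. In WT replicate 1 there were 0 of 45 (upper bound 7.87%), and in WT replicate 2 there was 1 of 4. Thinned to 1000 UMIs, the shares were 24.1% and 25.7% in D3TA replicates 1 and 2, while WT replicate 1 had 0 of 41 cells and WT replicate 2 had 1 of 4. Of the cycling barcodes, 18 in D3TA replicate 1 and 2 in D3TA replicate 2 had only 2 or 3 genes of the rule. Among core basophils 42 of 69 (60.9%, exact 95% interval 48.4 to 72.4) were cycling in D3TA replicate 1 and 17 of 26 (65.4%, 44.3 to 82.8) in D3TA replicate 2, against 0 of 18 (upper bound 18.5%) and 1 of 3 for WT replicates 1 and 2. No test over libraries was made, since WT replicate 2 has under 10 members. Among all kept cells the same count gave 29.0% and 18.2% in D3TA replicates 1 and 2, against 3.51% and 5.32% in WT replicates 1 and 2, so cycling cells were more frequent in the D3TA libraries as a whole.

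UMIs were then summed over the members of each library and compared by genotype with edgeR's quasi-likelihood test over 6061 genes. At an adjusted p under 0.05, 212 genes were called (3.5%), of which 151 were higher (2.49%) and 61 lower (1.01%) in D3TA basophils, with a median log2 fold change over all genes of 0.08. The WT side rests on WT replicate 1, since WT replicate 2 adds 4 barcodes. Without WT replicate 1 there were 35 calls, 10 higher and 25 lower, without D3TA replicate 1 there were 57, without D3TA replicate 2 there were 99 and without WT replicate 2 there were 158. In core basophils 306 of 4353 genes were called (7.03%), 193 higher (4.43%) and 113 lower (2.6%), and without D3TA replicate 2 there were 0 calls by edgeR (398 genes at an unadjusted p under 0.05). Without D3TA replicate 1 the core count was 71, without WT replicate 1 it was 34 and without WT replicate 2 it was 314. Without the cycling members, a setting added after the data were seen, 3 genes were called (S100a8, S100a9 and Prss34, the last a gene of the rule). Of the 54 genes called that the naming rule picked, most lost their call without WT replicate 1, so calls below rest largely on that library. The fit without it cannot single out firm calls, since its WT side is the 4 barcodes of WT replicate 2. Of the 3 core basophils there, 2 were Scrublet doublets and 2 had at least 2 B cell genes. Without Scrublet doublets Ralgps2, Cd22, Cd79b and Jun were not called by edgeR.

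Cell cycle genes were among those that rose. Of 53 listed G2/M genes, 46 passed the filter on low counts and 26 rose, against 2.49% of all genes tested, while 0 fell, with a median log2 fold change of 3.28, or 2.54 with the 10 genes at 0 in both WT libraries set to their lower bound. Mki67, a marker of dividing cells, stood at 445 and 585 CPM in D3TA replicates 1 and 2, against 10.3 and 63.6 CPM in WT replicates 1 and 2 (log2 fold change 4.70 ± 0.75 SE, edgeR adjusted p = 3.65e-05). Top2a, the topoisomerase that untangles replicated DNA, stood at 569 and 644 CPM in D3TA replicates, against 0 and 127 CPM in WT replicates (4.74 ± 0.82, edgeR adjusted p = 0.00011). Both D3TA replicates lay above both WT replicates for these genes, as they did for 42 of the 46 (25.6% over all genes tested).

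Several of the largest rises had no UMI in WT basophils, so their folds are lower bounds against 3 UMIs over the WT group. They were at least 14.6-fold higher for Birc5 (survivin, of the mitotic passenger complex), 10.0-fold for the centromere protein gene Cenpp, 9.81-fold for the histone gene Hist1h3c and 9.01-fold for the kinetochore gene Knl1. The bounds were 8.83-fold for the mitotic kinesin Cenpe, 8.58-fold for cyclin B2 (Ccnb2), 8.40-fold for the kinesin Kif15, 7.36-fold for the spindle midzone gene Prc1 and 6.78-fold for the DNA glycosylase Neil3. All 9 were called higher by edgeR (adjusted p between 0.000108 and 0.00331). The adhesion molecule Ncam1, at least 5.26-fold higher, is no cell cycle gene and was at 41.2 and 172 CPM in D3TA replicates 1 and 2.

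Of 43 listed S phase genes, 36 passed the filter, 10 rose, against 2.49% of all genes tested, 26 were not called and 0 fell, with a median of 2.40, or 2.09 with 3 genes at their lower bound. Pcna, the sliding clamp of DNA replication, stood at 225 and 253 CPM in D3TA replicates, against 46.4 and 95.3 CPM in WT replicates (2.08 ± 0.61, edgeR adjusted p = 0.0398). The helicase subunit Mcm3 had 296 UMIs over D3TA and 2 over WT basophils, a ratio of 16.0 (4.39 to 133, counting error only). For both genes the groups did not overlap.

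Of the cyclin D axis, 26 genes were listed, 18 passed the filter and 0 were called in either direction, beside 3.5% of all genes tested, and nothing is read from that count. Ccnd3 itself stood at 279 and 445 CPM in D3TA replicates 1 and 2, against 578 and 318 CPM in WT replicates 1 and 2, with overlapping groups (log2 fold change -0.39 ± 0.49, edgeR adjusted p = 0.838). A changed codon is not visible in these counts, so this level does not check the genotype. Cdk6 was at 380 and 633 CPM in D3TA replicates, against 294 and 63.6 CPM in WT replicates (1.20 ± 0.53, adjusted p = 0.255 by edgeR). In core basophils Cdk6 rose, to 376 and 479 CPM in D3TA replicates, against 54.8 and 41.2 CPM in WT replicates (3.09, edgeR adjusted p = 0.00107). WT core basophils held 109483 and 24290 UMIs in replicates 1 and 2, so these WT levels rest on few UMIs. The core left out 27 of 45 members of WT replicate 1, among them the barcode with mast cell genes, and their part was not tested. Over 16 alternatives, Cdk6 was called in 3. Cdk4 and Ccnd2 were not called (edgeR adjusted p = 0.525 and 0.724), and Ccnd1 had 7, 2, 0 and 0 UMIs in D3TA replicates 1 and 2 and WT replicates 1 and 2.

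Of the IgE signalling genes, Fcer1g stood at 808 and 720 CPM in D3TA replicates, against 1006 and 1049 CPM in WT replicates (-0.36, edgeR adjusted p = 0.853). Of the 24 listed genes 22 passed the filter and 0 were called, beside 3.5% of all genes tested, so nothing is read from that count, and the median was -0.38. Both D3TA libraries lay below both WT libraries for 11 of the 22 (17.4% over all genes tested) and above them for 5. Pik3r5, a regulatory subunit of PI3-kinase gamma, stood at 35.1 and 52.4 CPM in D3TA replicates, against 15.5 and 0 CPM in WT replicates (1.68, edgeR adjusted p = 0.409). The kinase Syk, singled out after its values were seen, was not called in all members (adjusted p = 0.608 by edgeR). In core basophils Syk fell, with 119 and 179 CPM in D3TA replicates, against 265 and 947 CPM in WT replicates (-1.75, edgeR adjusted p = 0.0379). Syk is also active in B cells, and the core of the WT libraries held B cell genes, but the part of B cell RNA in this fall was not tested.

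Among histamine, lipid mediator and granule genes, Hdc stood at 1169 and 1787 CPM in D3TA replicates 1 and 2, against 1924 and 1526 CPM in WT replicates 1 and 2, and the groups overlapped (-0.21 ± 0.51, edgeR adjusted p = 0.933). Of 19 listed genes 14 passed the filter and 0 were called, beside 3.5% of all genes tested, so that count too is not read, and the median was 0.26. Slc18a2, which loads amines into vesicles, stood at 73.9 and 209 CPM in D3TA replicates, against 212 and 254 CPM in WT replicates (-0.71, adjusted p = 0.623 by edgeR). Alox5, the 5-lipoxygenase of leukotriene synthesis, stood at 247 and 386 CPM in D3TA replicates, against 222 and 95.3 CPM in WT replicates (0.79, edgeR adjusted p = 0.555).

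Of 25 cytokine and chemokine genes 11 passed the filter, Chil3 rose and Ccl6 fell, with a median of -0.66, while 3.5% of all genes tested were called. Ccl6 stood at 543 and 650 CPM in D3TA replicates 1 and 2, against 1831 and 2574 CPM in WT replicates 1 and 2, with no overlap (-1.80 ± 0.52, edgeR adjusted p = 0.0338). The call was lost without any 1 of the 4 libraries, and in core basophils Ccl6 had an adjusted p of 0.0614 by edgeR. In poor core cells that were not cycling, Ccl6 was instead higher in both D3TA libraries, as given above. Il4, the type 2 cytokine for which basophils are best known, stood at 107 and 118 CPM in D3TA replicates, against 232 and 254 CPM in WT replicates (-1.06 ± 0.51, edgeR adjusted p = 0.335). The groups did not overlap for Il4 either, as for 6 of the 11 genes in the lower direction (17.4% over all genes tested). Il13 had 1 UMI in D3TA replicate 1 and 1 in WT replicate 1, and Il5 had 0 in every library.

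Other chemokines and growth factors of basophils were not called. Ccl9 stood at 243 and 393 CPM in D3TA replicates, against 1383 and 445 CPM in WT replicates (-1.62 ± 0.51, edgeR adjusted p = 0.0612). Ccl4 stood at 348 and 286 CPM in D3TA replicates, against 1367 and 350 CPM in WT replicates (-1.51, adjusted p = 0.0945 by edgeR). Hepatocyte growth factor (Hgf) stood at 320 and 600 CPM in D3TA replicates, against 758 and 699 CPM in WT replicates (-0.66, edgeR adjusted p = 0.629). Chil3, a chitinase-like lectin of neutrophils and macrophages, was at 102 and 76.3 CPM in D3TA replicates with 0 UMIs in WT replicates, at least 7.21-fold higher (edgeR adjusted p = 0.00325).

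Of 24 cytokine receptor genes 17 passed the filter, and Csf3r, the G-CSF receptor of neutrophils, was the 1 called, beside 3.5% of all genes tested. It was at 45.5 and 39.3 CPM in D3TA replicates 1 and 2 with 0 UMIs in WT replicates, at least 3.32-fold higher (edgeR adjusted p = 0.0254). In core basophils it was at 1.24 and 54.5 CPM in D3TA replicates 1 and 2. Il3ra stood at 76.3 and 61.1 CPM in D3TA replicates, against 61.9 and 0 CPM in WT replicates (0.51, adjusted p = 0.84 by edgeR). Csf2rb, the beta chain shared by the receptors for IL-3, IL-5 and GM-CSF, stood at 228 and 382 CPM in D3TA replicates, against 598 and 254 CPM in WT replicates (-0.61, edgeR adjusted p = 0.679).

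Among 20 surface and homing genes past the filter of 29 listed, Cxcr4 rose and Itga2 and Ccr2 fell, beside 3.5% called of all genes tested. Cxcr4, the receptor that holds cells in the bone marrow through CXCL12, stood at 106 and 229 CPM in D3TA replicates 1 and 2, against 20.6 and 63.6 CPM in WT replicates 1 and 2 (2.50 ± 0.73, edgeR adjusted p = 0.0366). Itga2, the CD49b integrin chain by which mouse basophils are stained, stood at 59.1 and 67.6 CPM in D3TA replicates, against 206 and 286 CPM in WT replicates (-1.84 ± 0.53, edgeR adjusted p = 0.0347). Ccr2, a receptor for monocyte chemokines, stood at 47.4 and 34.9 CPM in D3TA replicates, against 170 and 191 CPM in WT replicates (-2.01 ± 0.55, edgeR adjusted p = 0.0254). The groups did not overlap for these 3 genes, and each was called in core basophils too (edgeR adjusted p = 0.0135, 0.029 and 0.002). Over 16 alternatives Cxcr4 lost its call in 11, Itga2 in 14 and Ccr2 in 10. Poor core cells that were not cycling held Ccr2 at 124 and 118 CPM in D3TA replicates, against 256 and 281 CPM in WT replicates. Itga2 was found in 11 of 17 and 3 of 6 of these cells in D3TA replicates 1 and 2, against 17 of 18 and 2 of 2 in WT replicates 1 and 2, at 320 and 265 CPM against 338 and 422 CPM.

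Membrane and metabolic genes were among those that fell. Slc6a4, the serotonin transporter, stood at 1.85 and 10.9 CPM in D3TA replicates 1 and 2, against 124 and 127 CPM in WT replicates 1 and 2 (-4.74 ± 0.71, edgeR adjusted p = 1.14e-05). Cd7, a surface protein of the immunoglobulin superfamily best known from T and NK cells, stood at 23.4 and 41.4 CPM in D3TA replicates, against 279 and 254 CPM in WT replicates (-3.10 ± 0.55, edgeR adjusted p = 0.000179). Npl, an enzyme that cleaves sialic acid, stood at 13.5 and 37.1 CPM in D3TA replicates, against 175 and 159 CPM in WT replicates (-2.90 ± 0.60, edgeR adjusted p = 0.00163). Each WT replicate lay far above each D3TA replicate for these genes, which the naming rule took only without overlap. In core basophils Slc6a4, Cd7 and Npl were called by edgeR with log2 fold changes of -4.28, -3.25 and -3.19. Without cycling members none of the 3 was called by edgeR (adjusted p = 0.433, 0.863 and 0.769).

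Other genes fell too. Dok6, an adaptor of receptor tyrosine kinases, Agbl1 and Prag1 had log2 fold changes of -3.13, -3.20 and -3.08 (edgeR adjusted p = 0.00233, 0.00392 and 0.00612). The beta-defensin gene Defb40 (-2.73), the RNA sensor Tlr7 (-2.60), Sncaip (-2.58), Ralgps2 (-2.45), the B cell receptor inhibitor Cd22 (-2.40) and Nxpe4 (-2.38) fell as well. The naming rule took only genes without overlap between the groups, so nothing is read from the lack of overlap of these 9 genes. Nxpe4 lost its call in 10 of 11 alternatives, Sncaip in 10 of 15 and Tlr7 in 8 of 13. The call was lost in 6 of 14 for Dok6, 5 of 13 for Agbl1, 5 of 11 for Prag1 and 5 of 15 for Defb40. Ralgps2 lost it in 4 of 16 and Cd22 in 6 of 15, both of them in the fit without Scrublet doublets among others.

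Transcription factors of the lineage were measured in all libraries. Of 23 past the filter among 30, Myb rose and 0 fell, with a median of -0.11. Beside the 3.5% called over all genes tested, nothing is read from that count. Gata2 stood at 508 and 859 CPM in D3TA replicates 1 and 2, against 671 and 350 CPM in WT replicates 1 and 2, with overlapping groups (0.34 ± 0.50, edgeR adjusted p = 0.868). In core basophils Gata2 had 804 and 354 of 807756 and 329977 UMIs in D3TA replicates 1 and 2. It had 89 and 11 of 109483 and 24290 UMIs in WT replicates 1 and 2. As shares of core UMIs these groups did not overlap, with D3TA higher. Runx1 stood at 1758 and 2735 CPM in D3TA replicates, against 2729 and 1176 CPM in WT replicates (0.17, adjusted p = 0.955 by edgeR). Myb, a factor of cycling progenitors, stood at 132 and 170 CPM in D3TA replicates, against 5.16 and 0 CPM in WT replicates. It had 292 UMIs over D3TA and 1 over WT basophils, a ratio of 31.6 (5.62 to 1252, counting error only), and was called by edgeR (adjusted p = 0.00123). In core basophils Irf8, a factor of monocytes and B cells singled out after its values were seen, fell, to 6.19 and 6.06 CPM in D3TA replicates, against 91.3 and 206 CPM in WT replicates (edgeR adjusted p = 0.0011). As with Syk, the core of the WT libraries held B cell genes, and the part of B cell RNA in this fall was not tested.

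Granule genes of early granulocyte precursors rose in D3TA basophils. Mpo, myeloperoxidase, stood at 636 and 526 CPM in D3TA replicates 1 and 2, against 0 and 95.3 CPM in WT replicates 1 and 2, a ratio of 45.9 over pooled UMIs (15.7 to 223, counting error only; edgeR adjusted p = 4.41e-05). Ctsg stood at 1520 and 495 CPM in D3TA replicates, against 20.6 and 413 CPM in WT replicates (3.03 ± 0.71, edgeR adjusted p = 0.00611). Ms4a3, a membrane protein of granulocyte precursors, stood at 392 and 223 CPM in D3TA replicates, against 0 and 127 CPM in WT replicates (3.83 ± 0.83, edgeR adjusted p = 0.00325). The groups did not overlap, and the UMIs of Mpo, Ctsg and Ms4a3 in WT replicate 2 came from its single Prss34-rich cell. Core basophils held more of these genes than B cells of the same library: Ctsg was at 2604 and 609 CPM in core basophils of D3TA replicates 1 and 2, against 91.7 and 41.5 CPM in their B cells. Ms4a3 was at 721 and 279 CPM in these core basophils, against 53.6 and 30.3 CPM in B cells.

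Genes of mature neutrophils were also called. S100a9, a calcium-binding alarmin, stood at 2861 and 2653 CPM in basophils of D3TA replicates 1 and 2, against 20.6 and 0 CPM in WT replicates 1 and 2 (7.32 ± 0.81, edgeR adjusted p = 2.9e-09), and S100a8, its partner, at 1837 and 2496 CPM against 51.6 and 0 CPM. A few barcodes held much of this RNA: 4 of D3TA replicate 1, none of them core, and 2 of D3TA replicate 2, both core, had 500 or more UMIs of 8 mature neutrophil genes. Without them S100a9 stood at 1540 and 812 CPM in D3TA replicates 1 and 2 and S100a8 at 1044 and 697 CPM, with WT values as before. S100a9 had a UMI in 69 of 69 and 25 of 26 core basophils of D3TA replicates 1 and 2, against 2 of 18 and 0 of 3 of WT replicates 1 and 2. B cells of D3TA replicates 1 and 2 held 14022 and 7247 CPM of S100a9, against 388 and 444 CPM in B cells of WT replicates 1 and 2. Basophils held less S100a9 than B cells in every library, and the part of free RNA in the call was not tested. Camp, Ngp, Ltf, Elane and Prtn3, which the rule limited, are described only: Prtn3 was at 56.9 and 81.8 CPM in core basophils of D3TA replicates 1 and 2, under the 303 and 147 CPM of their B cells, with 0 UMIs in WT basophils. Summed over 8 mature neutrophil genes, basophils held 5148 and 6049 CPM in D3TA replicates 1 and 2, against 356 and 95.3 CPM in WT replicates 1 and 2, and 2735 and 1676 CPM in D3TA replicates without those barcodes.

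**Figure D4:**
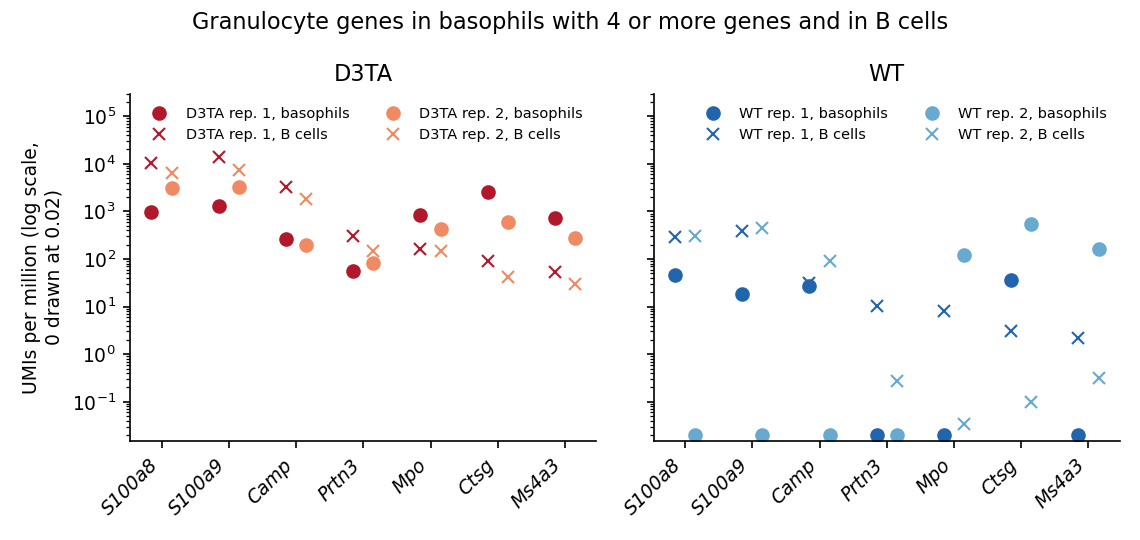
CPM on a log scale in core basophils (circles) and B cells (crosses) of each library, D3TA on the left and WT on the right, with values of 0 drawn at 0.02. In D3TA libraries S100a8, S100a9, Camp and Prtn3 are higher in B cells than in basophils, and Mpo, Ctsg and Ms4a3 are higher in basophils.

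Genes of other cells differed as well. Cd79a, a chain of the B cell receptor, stood at 228 and 105 CPM in basophils of D3TA replicates 1 and 2, against 459 and 1049 CPM in WT replicates 1 and 2 (-1.95 ± 0.52, edgeR adjusted p = 0.0194). In core basophils the log2 fold change was -4.48 (edgeR adjusted p = 1.59e-09). Summed over 8 B cell genes, core basophils held 267 and 721 CPM in D3TA replicates, against 2484 and 4199 CPM in WT replicates. Without the core barcode richest in these UMIs in each library, the sums were 258 and 455 CPM in D3TA replicates, against 1495 and 2035 CPM in WT replicates. Over 16 alternatives Cd79a lost its call in 8. Car2, a carbonic anhydrase abundant in red cells, had 445 UMIs over D3TA and 1 over WT basophils, a ratio of 48.1 (8.59 to 1905, counting error only), and stood at 257 and 58.9 CPM in D3TA replicates (adjusted p = 0.00163 by edgeR). In core basophils Car2 was not called (adjusted p = 0.13 by edgeR). Of 9 eosinophil genes, none passed the filter, and their sum was 524 and 34.9 CPM in D3TA replicates, against 51.6 and 0 CPM in WT replicates. Without the 2 barcodes of D3TA replicate 1 that had 3 or more UMIs of Prg2, an eosinophil granule protein, its sum was 76.2 CPM.

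Stress genes were called in part, while 3.5% of all genes tested were called. Of 17 immediate early genes past the filter, Jun rose, at 254 and 406 CPM in D3TA replicates 1 and 2, against 108 and 0 CPM in WT replicates 1 and 2 (1.98 ± 0.58, edgeR adjusted p = 0.0397). Of 10 heat shock genes, Hsp90aa1 and Hspa1a rose. Hsp90aa1 stood at 708 and 809 CPM in D3TA replicates, against 186 and 286 CPM in WT replicates (1.83 ± 0.53, edgeR adjusted p = 0.0382). Jun had the same order in B cells, at 201 and 83.4 CPM in D3TA replicates, against 16.2 and 30.7 CPM in WT replicates. Over 16 alternatives Jun lost its call in 12 and Hsp90aa1 in 11. Of 8 interferon-response and 7 STAT5 target genes past the filter, 0 were called in either direction. Beside 3.5% of all genes tested, nothing is read from these counts. Ifitm1 had an adjusted p of 0.0504 by edgeR at a log2 fold change of -1.68. In poor core cells that were not cycling it was instead higher in both D3TA libraries, as given above.

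**Figure D5:**
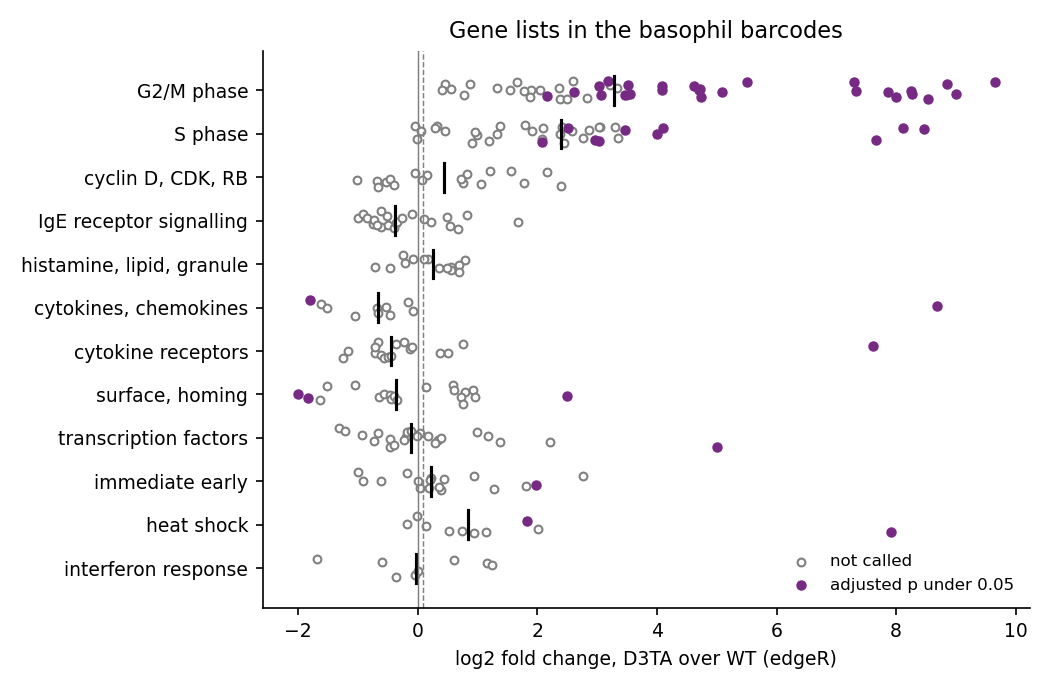
Log2 fold change, D3TA over WT, of each gene past the filter in 12 gene lists, from edgeR on summed basophil barcodes. Filled points have an adjusted p under 0.05, black bars are list medians, and the dashed line is the median of all genes at 0.08. For genes with 0 UMIs in both WT libraries the fitted value is no measure of size. G2/M and S phase genes lie to the right, and IgE signalling, histamine and interferon-response genes hold no filled point, beside 3.5% of all genes tested.

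Over the whole spleen, without any choice of cells, both basophil proteases were higher in D3TA. Mcpt8 stood at 93.6 and 35.1 CPM of all kept cells in D3TA replicates 1 and 2, against 1.60 and 1.83 CPM in WT replicates 1 and 2 (5.35 ± 0.61, edgeR adjusted p = 0.0147, or 0.0552 without WT replicate 2). Prss34 stood at 97.7 and 35.4 CPM in D3TA replicates, against 0.0384 and 0.941 CPM in WT replicates (7.21 ± 1.28, edgeR adjusted p = 0.043). Both were among the 1106 of 18426 genes called in the whole spleen (6.0%), with 5.66% of all genes higher and 0.347% lower in D3TA. The log2 fold changes of Cpa3, Ms4a2, Fcer1a and Cd200r3 were 3.24, 2.98, 2.78 and 2.21 and were not called (edgeR adjusted p between 0.0839 and 0.15), although each D3TA library lay above each WT library. In such sums, fewer cells of a type and less RNA per cell cannot be told apart. Basophil barcodes held 92.2% and 92.8% of the Mcpt8 UMIs of D3TA replicates 1 and 2, against 79.2% and 52.9% in WT replicates 1 and 2. Of Hdc UMIs they held 6.16% and 4.88% in D3TA replicates, against 12.4% and 2.63% in WT replicates, so most of the spleen's Hdc RNA lay in other cells.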

How the data were processed

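RNA was measured by droplet single-cell sequencing (10x GEM-X, a target of 10000 cells per library) in 4 spleens, 2 of D3TA and 2 of WT mice. The deposited values are UMI counts per gene and barcode. Per the file headers they came from Cell Ranger 7.0.1, and the build was mm10 per the submitters' processing notes. For the annotation release and for intronic reads, the sources used here give nothing. Libraries held 143811696 and 114430052 UMIs (D3TA replicates 1 and 2) and 83507825 and 81416981 UMIs (WT replicates 1 and 2) over 32285 genes. Of 64410 barcodes, 53945 passed the limits on UMIs, genes and mitochondrial share.

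Counts were summed per library and compared with edgeR 4.0.16 (quasi-likelihood test, TMM scaling, filterByExpr, Benjamini-Hochberg adjustment at 0.05) in R 4.3.3. DESeq2 1.42.0 was an alternative. CPM are UMIs per 1000000 UMIs of the summed cells, without TMM scaling, and a standard error is the log2 fold change over the square root of F. The labels do not state that mice share a litter or batch, and p-values measure the spread between these 4 samples. Shares were compared by an exact permutation test in scipy 1.17.1, with Clopper-Pearson 95% intervals. Scrublet, in scanpy 1.11.5, used an expected rate of 6%, and WT replicate 1, where it made no call of its own, took the mean threshold of the other libraries. It called 1616 doublets, which stayed in unless stated. Scripts were tested on simulated data.

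Named genes were up to 12 per direction with the largest change among called genes that did not overlap between groups and averaged at least 20 CPM, the genes of the selection rule, the D cyclins with Cdk4 and Cdk6, and up to 4 per list by smallest p and by highest level. The cells, the 29 gene lists and the naming rule were chosen with earlier results of these data known. Alternatives covered scaling, filters, selection, doublets, depth and each library left out.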

Additional observations from a re-analysis of the deposited data

How the results depend on the processing

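The share of basophils was higher in D3TA spleens under every alternative run, with log2 ratios between 1.36 and 3.65. Of the 212 genes called in basophils, median-ratio size factors left 131, DESeq2 21, the fit without Scrublet doublets 58 and the fit without cycling members 3, and calls without 1 library numbered 35 to 158. DESeq2 calls were 81.0% higher in D3TA, against 71.2% by edgeR, and 93.1% were higher without doublets. With no filter on low counts 81.0% of 147 calls were higher. Core basophils without Prss34-rich cells gave 141 calls, and core basophils gave 0 to 314 without 1 library (71 without D3TA replicate 1, 34 without WT replicate 1). In the whole spleen DESeq2 gave 2471 calls against 1106, and leaving out 1 library gave 140 to 5957. Ighd, lower in D3TA basophils, had log2 fold changes of -2.74 to 7.88 when 1 library was left out, the highest without WT replicate 1. The difference in the share of cycling basophils, D3TA minus WT, was 39.9 percentage points and 12.4 at 1000 UMIs per cell, with 27.4 to 52.4 when 1 library was left out. Except where fewer samples or cells were used by construction, the cause was not tested. The replicate numbers share no stated source, and deviations of same-numbered samples correlated at -0.06 in basophils and -0.11 in the whole spleen over genes. A replicate block gave 130 calls in basophils, 123 of them among the 212, and the crossed pairing, added after the data were seen, gave 78 in basophils and 2183 in the whole spleen. WT replicate 2, with 4 basophils, limits every comparison.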

Other observations

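Of the basophil barcodes, 12 in D3TA replicate 1 and 4 in D3TA replicate 2 had UMIs of both Kit, the stem cell factor receptor, and Mpo, against 0 in WT replicates 1 and 2. All of these had Myb, and 12 and 3 of them were cycling. Their depths were 4560 to 67238 UMIs in D3TA replicate 1 and 16804 to 37874 UMIs in D3TA replicate 2. Core basophils made up 4 of the 12 and 2 of the 4, and the others had only 2 or 3 genes of the rule. The eosinophil granule gene Prg2 had at least 3 UMIs in 2 barcodes, both in D3TA replicate 1, with 182 and 328 UMIs. These barcodes held 3 and 4 of the 6 genes of the selection rule.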
